A study of Homo sapiens with 15 samples.

Results

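The HUES9 skeletal muscle culture taken at day 50 was set against the HUES9 skeletal muscle culture taken at day 40, 2 of the 15 libraries of the series. Genes were described where they reached 5 FPKM (a read density, in fragments per kilobase of transcript and per unit of depth) in at least 1 of the 2 libraries. This held for 7720 of 17999 genes. Each difference is log2(FPKM + 1) at day 50 minus log2(FPKM + 1) at day 40, so a positive value means higher at day 50, and 1 unit is a 2-fold difference on that scale. Each day has 1 library, so no difference has a replicate check and none was tested; day, culture and library cannot be told apart.

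The study grew self-renewing neuromesodermal progenitors (srNMPs) from human embryonic stem cells and turned them into spinal cord neurons and skeletal muscle. Both muscle cultures came from HUES9, an established embryonic stem cell line, carry the genotype label WT and received a skeletal muscle induction; the labels give neither how the induction was done nor whether both days stem from the same run. The other 13 libraries, from HUES9 and from H1, a second such line, are also labelled WT: dorsal neurons, ventral neurons, 7-day neuron progenitors labelled RABC and RASS, srNMPs at passage 25 and passage 8, all with the treatment label neural induction, and uninduced HUES9 stem cells. The muscle libraries are bulk RNA of whole dishes, so fewer cells of a type and less RNA per cell of that type cannot be told apart.

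Skeletal muscle forms when PAX7 and PAX3 expressing progenitors switch on the myogenic factors MYF5, MYOD1 and MYOG, leave the cell cycle and fuse into multinucleated fibres. Fibres then replace embryonic and cardiac-type forms of many contractile proteins with neonatal and finally adult forms, which are fast or slow by fibre type. They also build the membrane system that couples excitation to calcium release. Progenitors that stay undifferentiated under the basal lamina become satellite cells, and connective tissue cells around the fibres lay down collagen, elastin and tenascin matrix.

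The markers of muscle fibres, MYH8 and CKM, were high on both days, as the labelled cell type requires, and the markers of progenitors, fibroblasts and cartilage were read beside them. MYH8, the perinatal myosin heavy chain, was listed at 365 FPKM at day 50 and 153 FPKM at day 40, and at no more than 0.115 FPKM in any of the other 13 libraries. CKM, the muscle creatine kinase, was listed at 296 FPKM at day 50 and 118 FPKM at day 40, against at most 6.61 FPKM elsewhere. PAX7 was listed at 17.1 FPKM at day 50 and 1.36 FPKM at day 40. COL1A1, a chain of type I collagen, was the most abundant of the 5 in both libraries, with 4700 FPKM at day 50 and 8504 FPKM at day 40 against at most 10.1 FPKM elsewhere. ACAN, the cartilage proteoglycan aggrecan, was listed at 3.28 FPKM at day 50 and 18.5 FPKM at day 40, against at most 0.352 FPKM elsewhere. The 3 muscle and progenitor genes were thus higher at day 50, and the 2 matrix genes were lower.

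Between the 2 days, 69 genes were at least 2-fold higher at day 50 (0.894% of 7720) and 83 at least 2-fold lower (1.08%), together 1.97%. At 3-fold the counts were 12 higher and 19 lower. The median difference of all 7720 genes was 0.10, with quartiles of -0.08 and 0.25, and 64.7% of them lay above 0. Scaling moved the split: of the genes past 2-fold, 45.4% were the higher ones as deposited, against 37.9% with equal totals (61 higher, 100 lower), 34.0% after quantile normalization (55 and 107), 30.2% with the median log ratio of all genes set to 0 (52 and 120) and 35.2% with totals that leave out the 50 most abundant genes (58 and 107). Setting that median log ratio to 0 moved the median of all genes to -0.01. The members nearest to the 2-fold limit were SOX8 (1.02, inside) and PACSIN3 (0.999, just outside) among the higher genes, and CEMIP (-1.003, inside) and TIMP3 (-0.998, just outside) among the lower.

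The series has no second library of either day, but 6 other groups hold 1 HUES9 and 1 H1 library each. Between HUES9 and H1, 7.34% of genes were at least 2-fold apart in dorsal neurons, 8.46% in ventral neurons, 5.03% in RABC, 3.27% in RASS, 5.06% in srNMPs at passage 25 and 15.3% at passage 8. The 1.97% between the muscle days lies under all 6. These pairs differ by line as well as culture, so they describe how far libraries of 1 label can lie apart and give no error for the muscle libraries.

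**Figure D1:**
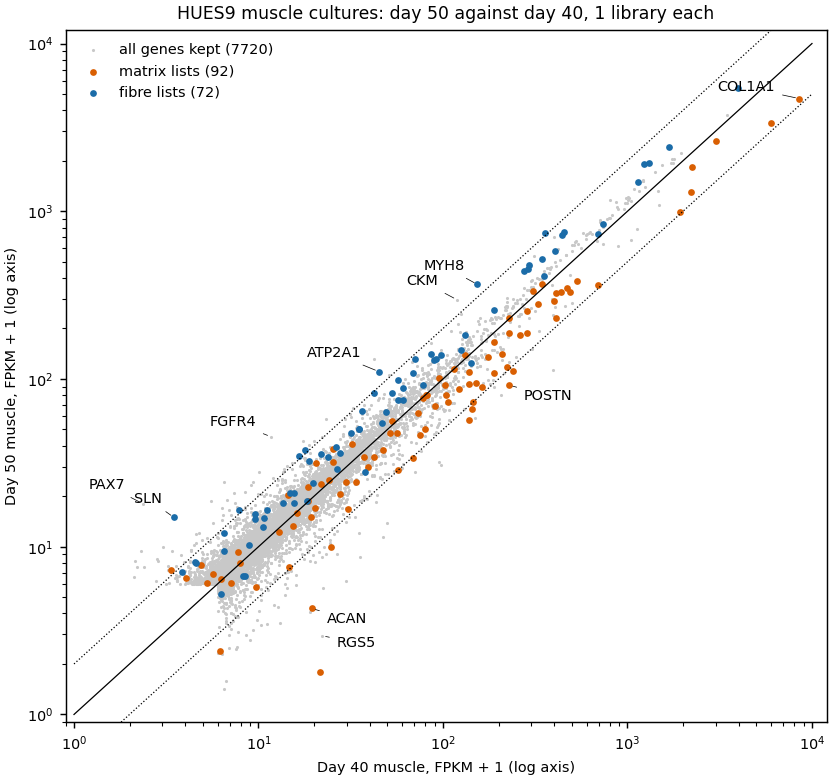
Each point is 1 of the 7720 genes, with FPKM + 1 at day 50 on the vertical log axis and at day 40 on the horizontal log axis; the solid line marks equality and the dotted lines 2-fold. Most of the 72 genes of the fibre lists (blue) lie above the line and most of the 92 genes of the matrix lists (orange) below it.

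Total FPKM summed to 305957 at day 50 and 293895 at day 40, within the range of all libraries (290306 to 421109). The deposited values hold no read counts. Among 554 genes under 0.05 FPKM in both muscle libraries, 121 shared the same ratio between the days, as values of whole fragments would, which puts the depth at day 50 at 0.963 of that at day 40. Depth at day 40 was estimated at 34.1 M fragments from 113 genes (median, quartiles 16.9 and 39.4). A gene's smallest value above 0 in any library was taken as at least 1 fragment. Dividing 0.9 of a muscle value by it gave an approximate lower bound of fragments. That bound is too high where the library with the smallest value is much deeper, and the depth of the other libraries was not estimated. Across genes, which are not independent replicates, Spearman's rho was 0.985 between day 50 and day 40, and 0.786 to 0.830 between either and the other libraries.

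Promoter sequences are shown for 5 contractile or metabolic genes, because muscle genes are known to be controlled through short elements near their start: E-boxes bound by MYOD1 and MYOG, MEF2 boxes bound by MEF2 factors, and CArG boxes bound by SRF. MYH8, MYOZ2 and CKM are members of the muscle lists at least 2-fold higher at day 50; cardiac actin ACTC1 and enteric smooth muscle actin ACTG2 hold the same kind of element but differ in direction. The windows run from 250 bases before to 50 bases after the start in RefSeq on GRCh38.p14, and capitals mark only the elements named for each gene. The ACTG2 window also holds a CAGCTG and the ACTC1 window a TATAAA, both left in lower case.
MYH8 (chr17:10421901-10422200, minus strand, a MEF2 box 189 bases before the start): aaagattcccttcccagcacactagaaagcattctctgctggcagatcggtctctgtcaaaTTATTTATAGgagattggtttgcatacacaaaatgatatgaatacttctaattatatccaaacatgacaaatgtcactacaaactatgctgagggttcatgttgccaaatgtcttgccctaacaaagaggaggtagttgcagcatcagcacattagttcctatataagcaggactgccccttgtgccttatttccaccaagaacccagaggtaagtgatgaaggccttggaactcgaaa
MYOZ2 (chr4:119135582-119135881, plus strand, a MEF2 box 52 and the E-box CAGCTG 31 bases before the start): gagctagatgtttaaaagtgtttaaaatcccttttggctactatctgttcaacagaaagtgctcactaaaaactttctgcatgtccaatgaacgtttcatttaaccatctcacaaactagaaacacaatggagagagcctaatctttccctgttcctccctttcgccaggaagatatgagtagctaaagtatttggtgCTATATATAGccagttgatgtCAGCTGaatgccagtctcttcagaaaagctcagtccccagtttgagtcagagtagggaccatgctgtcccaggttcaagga
CKM (chr19:45322826-45323125, minus strand, CAGCTG 99 bases before the start): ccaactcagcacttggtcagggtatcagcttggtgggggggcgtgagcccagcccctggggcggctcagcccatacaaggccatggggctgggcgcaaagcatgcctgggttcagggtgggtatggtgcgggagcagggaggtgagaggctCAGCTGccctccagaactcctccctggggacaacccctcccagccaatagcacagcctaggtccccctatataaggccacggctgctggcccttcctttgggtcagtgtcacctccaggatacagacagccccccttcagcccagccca
ACTC1 (chr15:34795500-34795799, minus strand, the first of 3 listed starts, a CArG box 109 bases before it): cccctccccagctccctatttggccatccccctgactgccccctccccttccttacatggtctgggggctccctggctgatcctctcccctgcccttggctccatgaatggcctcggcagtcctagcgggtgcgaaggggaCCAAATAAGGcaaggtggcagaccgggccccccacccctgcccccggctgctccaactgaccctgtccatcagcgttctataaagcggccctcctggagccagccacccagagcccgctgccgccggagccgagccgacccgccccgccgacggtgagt
ACTG2 (chr2:73892758-73893057, plus strand, CArG boxes 110 and 73 bases before the start): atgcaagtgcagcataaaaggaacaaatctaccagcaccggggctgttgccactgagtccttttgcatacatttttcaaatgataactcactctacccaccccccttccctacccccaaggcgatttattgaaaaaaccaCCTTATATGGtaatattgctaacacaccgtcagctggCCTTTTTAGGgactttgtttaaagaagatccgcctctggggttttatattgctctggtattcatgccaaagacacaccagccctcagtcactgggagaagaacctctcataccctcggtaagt

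In all, 7 motifs were searched on both strands: the E-box form CAGCTG and the general E-box CANNTG, which takes in every case of the first, the MEF2 box, the CArG box, the TATA element TATAAA, which either of those boxes can hold, the SMAD element CAGACA and the TEAD element GGAATG. A promoter was listed for 49 of the 72 fibre genes, 64 of the 92 matrix genes and 6362 of all genes kept. CAGCTG stood in 17 of the 49 fibre promoters (34.7%) and in 9 of the 64 matrix promoters (14.1%), beside 16.5% of all genes kept and 17.7% of all 27305 promoters of the table. It also stood in 30.4% of the promoters of genes at least 2-fold higher at day 50 and in 6.35% of those at least 2-fold lower. A MEF2 box stood in 11 fibre promoters (22.4%) and 1 matrix promoter (1.56%), beside 1.57% of genes kept and 3.09% of all promoters. Among genes at least 2-fold higher at day 50 it stood in 2 of 46 promoters (4.35%), those of MYH8 and MYOZ2 shown above. Among genes at least 2-fold lower it stood in 1 of 63 (1.59%). These fibre genes are muscle genes by choice of list, so the shares describe the lists and not the difference between the days. CArG boxes were in 4 fibre promoters (8.16%) and 3 promoters of genes at least 2-fold lower (4.76%), beside 1.27% of genes kept and 1.29% of all promoters. CANNTG was in 83.7% of fibre and 45.3% of matrix promoters (58% of genes kept, 68.9% of all promoters), and TATAAA in 16.3% and 12.5% (5.5% and 12%). CAGACA was in 20.4% and 10.9% (11.7% and 16.8%), and GGAATG in 22.4% and 12.5% (11% and 14%).

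Contractile genes of the fibre were higher at day 50 nearly throughout. Of 94 genes on the 5 fibre lists (myosin heavy chains, myosin light chains and binding proteins, thin filament, Z-disc and titin, excitation-contraction coupling), 72 reached 5 FPKM, and 67 of these were higher at day 50 and 5 lower (93.1% higher, beside 64.7% of all genes), with a median difference of 0.53 beside 0.10 for all genes. At 2-fold, 7 were higher and 0 lower, where 0.894% of all genes were higher and 1.08% lower. Summed, the lists took 7.63% of all FPKM at day 50 and 5.55% at day 40. The values ran from -0.44 for ANKRD1, a titin-binding stress protein, to 2.11 for SLN, sarcolipin.

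The myosin heavy chains, the motors of the thick filament, were mainly those of embryonic and perinatal muscle on both days. MYH3, the embryonic chain, had 1952 FPKM at day 50 and 1304 FPKM at day 40 (0.58). MYH8, the perinatal chain, stood at 365 FPKM at day 50 and 153 FPKM at day 40 (1.25), the largest difference of the 4 heavy chains kept. MYH8 made up 15.8% of the sum of MYH8 and MYH3 at day 50 and 10.5% at day 40. MYH7, the slow chain, was listed at 31.2 FPKM at day 50 and 17.8 FPKM at day 40 (0.77), and its relative MYH7B at 9.25 and 7.88 FPKM in the same order. The adult fast chains stayed near 0 on both days: MYH1 at 0.0795 FPKM at day 50 and 0.0191 FPKM at day 40, MYH2 at 0.420 and 0.362 FPKM, and MYH4 at 0 and 0.00461 FPKM.

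Light chains and thick filament binding proteins were higher in 9 of 10 genes kept, with none past 2-fold. MYBPC2, the fast form of myosin-binding protein C, had 81.6 FPKM at day 50 and 41.2 FPKM at day 40 (0.97), whereas its slow partner MYBPC1 had 129 FPKM at day 50 and 88.1 FPKM at day 40 (0.54). MYBPH, myosin-binding protein H, had 725 FPKM at day 50 and 442 FPKM at day 40 (0.71). MYL1, the fast essential light chain, had 1495 FPKM at day 50 and 1144 FPKM at day 40 (0.39). The embryonic and atrial light chain MYL4 moved alongside, with 581 FPKM at day 50 and 406 FPKM at day 40, so MYL1 held 72.0% of their sum at day 50 and 73.8% at day 40.

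On the thin filament 14 of 15 genes kept were higher and 2 passed 2-fold. TNNC2, the calcium sensor of fast fibres, had 737 FPKM at day 50 and 355 FPKM at day 40 (1.05), while the slow and cardiac form TNNC1 had 728 FPKM at day 50 and 690 FPKM at day 40 (0.08). TNNC2 therefore made up 50.3% of the 2 troponin C forms at day 50 and 34.0% at day 40. TMOD1, which caps the pointed ends of actin filaments, had 15.5 FPKM at day 50 and 6.84 FPKM at day 40 (1.07). NEB, the giant ruler protein nebulin, had 98.1 FPKM at day 50 and 55.9 FPKM at day 40 (0.80). Both sarcomeric actins were higher, and the cardiac form, which dominates in fetal muscle, stayed far above the skeletal form: ACTC1 had 5456 FPKM at day 50 and 3977 FPKM at day 40 (0.46). ACTA1, the skeletal form, had 476 FPKM at day 50 and 292 FPKM at day 40 (0.71), which is 8.03% of their sum at day 50 and 6.83% at day 40. Cardiac troponin T went the same way, with TNNT2 at 749 FPKM at day 50 and 449 FPKM at day 40 (0.74), and the fast form TNNT3 held 40.9% of the sum of TNNT3 and TNNT2 at day 50 and 43.4% at day 40.

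At the Z-disc, the M-band and along titin, 20 of 22 genes kept were higher and 1 passed 2-fold. That gene was MYOZ2, a calcineurin-binding Z-disc protein of slow and cardiac muscle, at 36.9 FPKM at day 50 and 16.9 FPKM at day 40 (1.09). TTN, the molecular spring titin, had 63.0 FPKM at day 50 and 35.3 FPKM at day 40 (0.82). Smaller and weakly expressed were XIRP2, an actin-binding repeat protein (6.09 FPKM at day 50, 2.83 FPKM at day 40), and CSRP3, muscle LIM protein (6.97 and 3.59 FPKM in the same order). The 2 lower genes were XIRP1 (-0.32) and ANKRD1 (-0.44).

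Genes that couple the membrane signal to calcium release were higher in 20 of 21 cases, 3 of them past 2-fold. SLN, a small peptide that inhibits the calcium pump, had 13.97 FPKM at day 50 and 2.47 FPKM at day 40 (2.11), with approximate lower bounds of 149 fragments at day 50 and 26 at day 40. ATP2A1, the fast SERCA pump that returns calcium to the store, had 110 FPKM at day 50 and 43.8 FPKM at day 40 (1.31). The slow and ubiquitous pump ATP2A2 had 73.9 FPKM at day 50 and 59.7 FPKM at day 40 (0.30), so ATP2A1 was the larger part of their sum at day 50 (59.8%) and the smaller at day 40 (42.3%). CACNG1, the gamma subunit of the skeletal calcium channel, had 33.6 FPKM at day 50 and 15.6 FPKM at day 40 (1.06). RYR1, the calcium release channel, had 131 FPKM at day 50 and 69.3 FPKM at day 40 (0.91). CASQ1, the calsequestrin of fast fibres, stayed at 0.717 FPKM at day 50 and 0.292 FPKM at day 40.

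**Figure D2:**
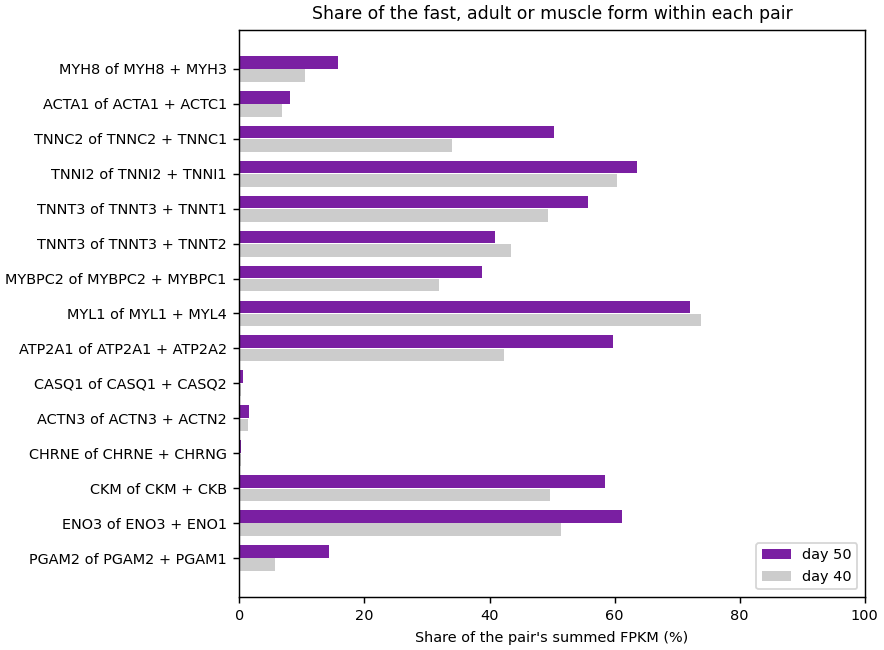
Each pair of bars gives the share (percent of the pair's summed FPKM) of the form named first, at day 50 (purple) and at day 40 (grey), 1 library each. That form is the fast, adult or muscle one, or in the MYH8 pair the perinatal one. The first form had the larger share at day 50 in 13 of 15 pairs; the exceptions are TNNT3 against TNNT2 and MYL1 against MYL4.

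Across 15 such pairs of a perinatal, fast, adult or muscle form with an embryonic, slow, cardiac or ubiquitous form, the first had the larger share at day 50 in 13. The MYH8 pair sets a perinatal against an embryonic chain and holds no adult form. The 13 include the pairs of CASQ1, ACTN3 and CHRNE, which were under 5 FPKM on both days. On the log2(FPKM + 1) scale their partners CASQ2, ACTN2 and CHRNG had the larger differences. A share is taken within a library, so it does not depend on a scaling that multiplies all genes alike. The pairs were assembled with earlier results of these data known, and they share libraries, so the count is a description. Some adult or fast forms were minor on both days. CHRNE, the adult subunit of the acetylcholine receptor, made up 0.299% of its sum with the fetal subunit CHRNG at day 50 and 0.224% at day 40. ACTN3, the fast alpha-actinin, made up 1.48% of its sum with ACTN2 at day 50 and 1.42% at day 40.

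Postsynaptic genes of the neuromuscular junction were higher in 8 of 9 cases, with none past 2-fold and a median of 0.55. The share of higher genes over all genes was 64.7%, with a median of 0.10. CHRNA1, which binds acetylcholine, had 138 FPKM at day 50 and 104 FPKM at day 40 (0.40). RAPSN, which clusters the receptors, had 74.3 FPKM at day 50 and 43.4 FPKM at day 40 (0.76). ACHE, the enzyme that breaks the transmitter down, had 6.54 FPKM at day 50 and 3.13 FPKM at day 40 (0.87).

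Muscle enzymes were higher in 11 of 13 genes kept (84.6%), 3 past 2-fold, with a median of 0.63. Their ubiquitous counterparts were higher in a like share, 12 of 14 genes (85.7%), with a median of 0.12 and none past 2-fold. Of all genes, 64.7% were higher, with a median of 0.10. CKM (1.32) made up 58.4% of cytosolic creatine kinase transcripts at day 50 and 49.6% at day 40, although CKB, the brain-type form, was higher too, with 211 FPKM at day 50 and 120 FPKM at day 40 (0.81). PGAM2, muscle phosphoglycerate mutase, had 6.08 FPKM at day 50 and 2.38 FPKM at day 40 (1.07). LPL, the lipase that supplies fibres with fatty acids and is also an adipocyte gene, had 8.999 FPKM at day 50 and 2.04 FPKM at day 40 (1.72). CKMT2, the mitochondrial kinase, was lower, at 5.22 FPKM at day 50 and 8.14 FPKM at day 40 (-0.55). In the dystrophin complex, which ties the fibre's cytoskeleton to the matrix, 9 of 12 genes were higher (75%), with a median of 0.27. Among them was SGCA, alpha-sarcoglycan, at 55.1 FPKM at day 50 and 32.8 FPKM at day 40 (0.73).

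Myogenic regulators were higher in 13 of 15 genes kept, 2 past 2-fold, with a median of 0.65. Across all genes 64.7% were higher and 0.894% past 2-fold upward, with a median of 0.10. PAX7, the factor that marks satellite cells and their fetal precursors, had the largest difference of all 7720 genes upward. It had 17.1 FPKM at day 50 and 1.36 FPKM at day 40 (2.93), with approximate lower bounds of 1699 and 135 fragments in the same order. Its relative PAX3, which marks earlier progenitors, was listed at 1.90 FPKM at day 50 and 2.12 FPKM at day 40. MYOD1, which commits cells to muscle, had 126 FPKM at day 50 and 67.3 FPKM at day 40 (0.89), and MYOG, which starts terminal differentiation, had 539 FPKM at day 50 and 312 FPKM at day 40 (0.79). MYF5, the earliest of the myogenic factors, was listed at 0.777 FPKM at day 50 and at 0 at day 40. SIX2 (1.04) was the second gene past 2-fold, and SIX4 (-0.26) was among the lower genes.

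Genes of satellite and progenitor cells split in direction, with 3 of 13 genes kept past 2-fold upward and 3 downward. Of all genes, 0.894% were past 2-fold upward and 1.08% downward. Beside PAX7, FGFR4, the FGF receptor of muscle progenitors, had 44.3 FPKM at day 50 and 10.7 FPKM at day 40 (1.96). CXCR4, a chemokine receptor of migrating muscle progenitors, had 6.597 FPKM at day 50 and 1.40 FPKM at day 40 (1.66). The Notch target HEY1 stayed under 5 FPKM on both days, with 3.04 FPKM at day 50 and 0.615 FPKM at day 40 (1.32), and CALCR, a receptor of quiescent satellite cells in mice, was listed at 0.158 FPKM at day 50 and 0.00724 FPKM at day 40. Of the 3 lower members, CAV1, the coat protein of caveolae, had 3.09 FPKM at day 50 and 18.1 FPKM at day 40 (-2.22). The proteoglycan SDC4 had 1.97 and 7.59 FPKM in that order (-1.53), and the adhesion molecule VCAM1 28.2 and 58.4 FPKM (-1.02). Members of either direction are not specific to muscle progenitors. CXCR4 reached 100 FPKM in HUES9 dorsal neurons, and in HUES9 stem cells FGFR4 had 14.1 FPKM and SDC4 41.1 FPKM.

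PAX7 is not specific to muscle in these libraries. It was listed at 29.5 FPKM in HUES9 dorsal neurons and at 11.1 FPKM in H1 dorsal neurons; the first lies above both muscle days and the second between them. It stood at 0.420 FPKM in HUES9 srNMPs at passage 25 and 1.74 FPKM at passage 8. In H1 srNMPs PAX7 was listed at 2.94 FPKM at passage 25 and 9.57 FPKM at passage 8. RABC progenitors had 10.1 FPKM in H1 and 4.82 FPKM in HUES9, and RASS progenitors at most 0.294 FPKM. Of the 22 neuron genes listed, 5 reached 5 FPKM in a muscle library, and the list summed to 299 FPKM at day 50 and 238 FPKM at day 40. Neurofilament NEFM had 151 FPKM at day 50 and 119 FPKM at day 40 (0.33), and DCX, a microtubule protein of migrating neurons, 76.3 FPKM at day 50 and 43.8 FPKM at day 40 (0.79). NEFL, another neurofilament, had 51.5 FPKM at day 50 and 49.95 FPKM at day 40 (0.04), and TUBB3, neuronal tubulin, 3.85 FPKM at day 50 and 7.38 FPKM at day 40 (-0.79). Neither neurofilament is specific to neurons in these libraries. In srNMPs NEFM was listed at 86.0 to 115 FPKM and NEFL at 50.9 to 64.3 FPKM. In dorsal neurons NEFM was under both muscle days, at 73.1 FPKM in H1 and 50.8 FPKM in HUES9. Both genes were highest in ventral neurons, with NEFM at 257 FPKM in H1 and 592 FPKM in HUES9. Of the 22, 12 were under 1 FPKM on both days and 2 of these were at 0. SNAP25 stood at 2.34 FPKM at day 50 and 3.22 FPKM at day 40, and STMN2 at 1.31 and 1.92 FPKM in that order. The lowest values included RBFOX3 at 0.00335 FPKM at day 50 and 0.0129 FPKM at day 40, SYN1 at 0.0559 and 0.0987 FPKM, and CHAT at 0 on both days. The neural progenitor factors PAX6 and SOX1 were listed at 0.0778 and 0.0525 FPKM at day 50, against 0.110 and 0.0506 FPKM at day 40, and SOX2 was listed at 4.44 FPKM at day 50 and 2.09 FPKM at day 40 against no less than 113 FPKM in any of the other 13 libraries.

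Fusion genes were higher in 9 of 12 cases (75%, beside 64.7% of all genes), with a median of 0.31 beside 0.10 for all genes. MYMX, the micropeptide myomixer that opens the fusion pore, had 15.5 FPKM at day 50 and 5.92 FPKM at day 40 (1.25), the only member past 2-fold. Its partner MYMK, myomaker, had 143 FPKM at day 50 and 95.6 FPKM at day 40 (0.57), and CDH15, the cadherin of myoblasts and satellite cells, 162 FPKM at day 50 and 84.7 FPKM at day 40 (0.93).

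**Figure D3:**
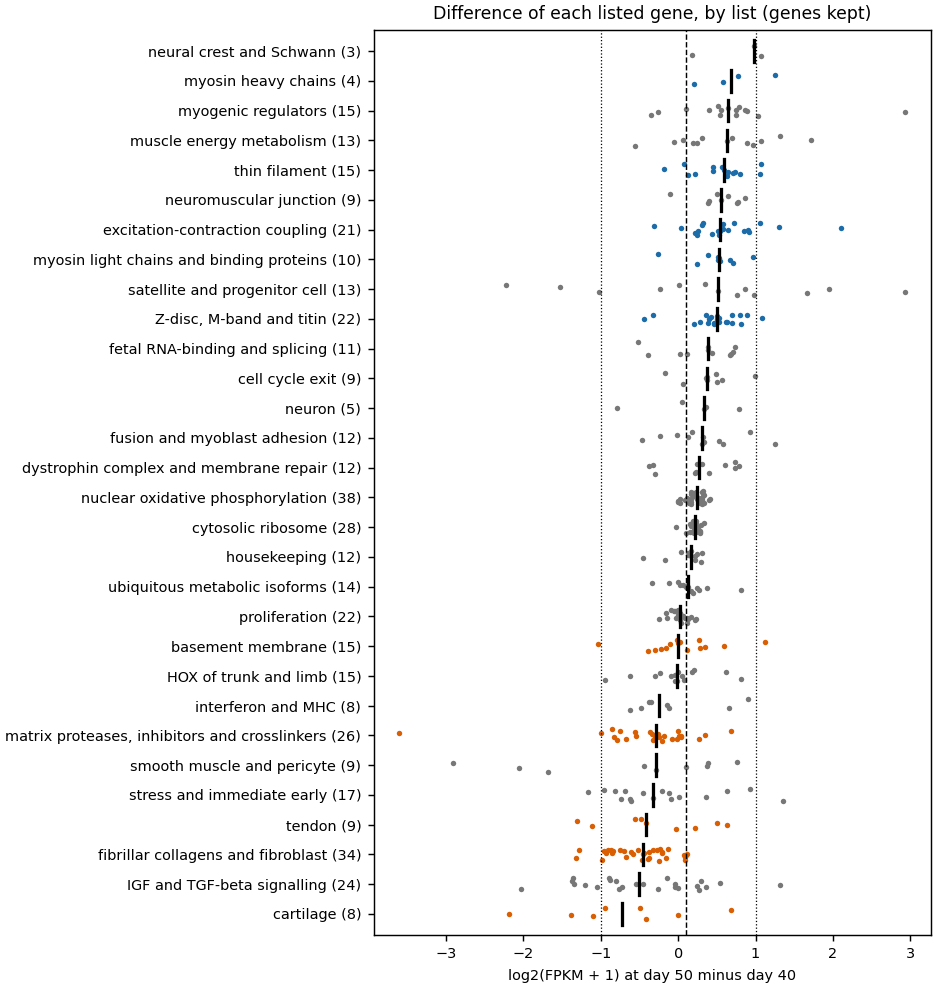
Each point is 1 gene of the list named at the left (genes kept in parentheses), placed by its difference, log2(FPKM + 1) at day 50 minus day 40; black bars are list medians, the dashed line is the median of all 7720 genes (0.10) and the dotted lines mark 2-fold. Fibre lists (blue) have medians of 0.50 to 0.68, and matrix lists (orange) lie between -0.72 and 0.

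Matrix genes were lower at day 50 in most cases. Of 115 genes on the 5 matrix lists (fibrillar collagens and fibroblast genes, basement membrane, proteases and crosslinkers, cartilage, tendon), 92 reached 5 FPKM; 69 were lower at day 50 and 23 higher (25% higher, beside 64.7% of all genes), with a median of -0.32. At 2-fold, 9 were lower and 1 was higher, where 1.08% of all genes were lower and 0.894% higher. The lists summed to 7.47% of all FPKM at day 50 and 11.8% at day 40, most of it in fibrillar collagens and fibroblast genes (6.30% at day 50, 10.2% at day 40). In the annotation that the authors' deposited table carries, the term collagen-containing extracellular matrix was attached to 24 of the 83 genes at least 2-fold lower (28.9%), 3 of the 69 at least 2-fold higher (4.35%) and 190 of the 7720 kept (2.46%). Muscle terms of that annotation showed no such split at 2-fold: Z disc was attached to 2 of the higher genes (2.9%), 3 of the lower (3.61%) and 84 of those kept (1.09%), and muscle contraction to 3 (4.35%), 1 (1.2%) and 70 (0.907%). Of the genes kept with each term, 64 of 84 and 46 of 70 were higher at day 50 by any amount. The second count is close to the 64.7% of all genes that were higher.

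Among fibrillar collagens and fibroblast genes 29 of 34 were lower, 2 past 2-fold, with a median of -0.45. The chains of type I collagen, the main fibre of connective tissue, went together: COL1A1 had 4700 FPKM at day 50 and 8504 FPKM at day 40 (-0.86), and COL1A2 3346 FPKM at day 50 and 5992 FPKM at day 40 (-0.84). FN1, fibronectin, had 989 FPKM at day 50 and 1916 FPKM at day 40 (-0.95). The 2 genes past 2-fold were POSTN, periostin, a matricellular protein of activated fibroblasts, with 90.8 FPKM at day 50 and 228 FPKM at day 40 (-1.32), and COL14A1, a fibril-associated collagen, with 56.3 FPKM at day 50 and 138 FPKM at day 40 (-1.27). Not every fibroblast gene was lower: COL6A1, COL6A2 and COL6A3, the microfibrillar collagen that fibroblasts place around fibres, differed by 0.12, 0.11 and 0.09, and PDGFRA, the receptor that marks fibro-adipogenic progenitors, had 55.0 FPKM at day 50 and 52.1 FPKM at day 40 (0.08).

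Cartilage genes had the lowest median of the 5 matrix lists, -0.72 over 8 of 23 genes, with 3 past 2-fold downward (1.08% of all genes were). ACAN (-2.19) led them, followed by COMP, a cartilage and tendon pentamer, with 1.38 FPKM at day 50 and 5.21 FPKM at day 40 (-1.38), and COL11A1, which nucleates collagen fibrils, with 111 FPKM at day 50 and 239 FPKM at day 40 (-1.10). COL2A1, the main cartilage collagen, had 85.8 FPKM at day 50 and 121 FPKM at day 40 (-0.49). SOX9, the master factor of cartilage, was under 5 FPKM on both days, with 3.20 FPKM at day 50 and 2.90 FPKM at day 40. Only 1 of 9 bone genes was kept, the phosphatase ALPL, with 1.48 FPKM at day 50 and 5.96 FPKM at day 40 (-1.49).

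Tendon genes were lower in 6 of 9 cases, 2 past 2-fold, where 64.7% of all genes were higher and 1.08% at least 2-fold lower. MKX, a homeobox factor of tendon, had 8.95 FPKM at day 50 and 23.6 FPKM at day 40 (-1.31), and THBS2, a matricellular thrombospondin, 65.3 FPKM at day 50 and 143 FPKM at day 40 (-1.11). SCX, scleraxis, the early tendon factor, was nearly level, with 5.08 FPKM at day 50 and 4.23 FPKM at day 40 (0.22).

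Matrix proteases, inhibitors and crosslinkers were lower in 20 of 26 cases, with 1 past 2-fold, where 64.7% of all genes were higher. PCOLCE, which speeds procollagen processing, had 230 FPKM at day 50 and 409 FPKM at day 40 (-0.83), and TIMP3, a matrix-bound protease inhibitor, 71.7 FPKM at day 50 and 144 FPKM at day 40. Basement membrane genes, several of which are made by fibres themselves, showed no common direction, with 7 of 15 higher, 8 lower and a median of 0. They held the 1 gene of the matrix lists past 2-fold upward, COL15A1, at 6.26 FPKM at day 50 and 2.34 FPKM at day 40 (1.12). Outside the lists the collagen COL19A1 was also past 2-fold upward, with 27.0 FPKM at day 50 and 9.10 FPKM at day 40 (1.47). NID2, nidogen 2, was at 32.8 FPKM at day 50 and 68.1 FPKM at day 40 (-1.03).

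Smooth muscle and pericyte genes held 3 of the largest downward differences, although 4 of the 9 genes kept were higher (beside 64.7% of all genes). RGS5, a pericyte regulator of G-protein signalling, had 1.94 FPKM at day 50 and 21.1 FPKM at day 40 (-2.91). ACTG2, the enteric smooth muscle actin shown above with paired CArG boxes, had 10.4 FPKM at day 50 and 46.3 FPKM at day 40 (-2.05), and TAGLN, the actin-binding protein transgelin, 29.5 FPKM at day 50 and 97.0 FPKM at day 40 (-1.68). ACTA2, the smooth muscle actin that immature fibres and myofibroblasts also make, had 296 FPKM at day 50 and 399.96 FPKM at day 40 (-0.43). NOTCH3, a receptor of both pericytes and satellite cells, was higher, with 80.2 FPKM at day 50 and 46.9 FPKM at day 40 (0.76).

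**Figure D4:**
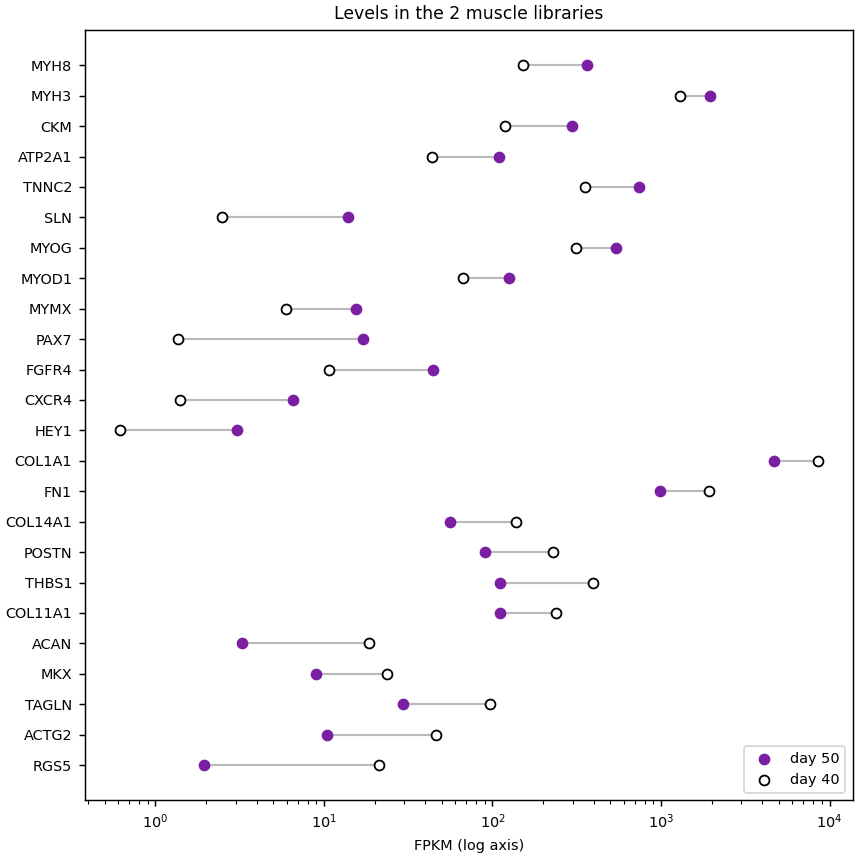
FPKM (log axis) of 24 genes at day 50 (filled purple) and day 40 (open), 1 library each, joined by a grey line. The fibre, regulator and progenitor genes drawn, from MYH8 to HEY1, lie further right at day 50. The matrix and smooth muscle genes drawn, from COL1A1 to RGS5, lie further left. The genes drawn do not stand for their whole lists. Not drawn are CAV1 (-2.22), SDC4 (-1.53) and VCAM1 (-1.02) of the progenitor list, which were lower. NOTCH3 (0.76) of the smooth muscle list, also not drawn, was higher.

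In IGF and TGF-beta signalling, pathways that set muscle growth and matrix production, 18 of 24 genes were lower, 6 past 2-fold, and 1 was past 2-fold upward, with a median of -0.50. Of all genes, 64.7% were higher by any amount, 1.08% were at least 2-fold lower and 0.894% at least 2-fold higher. IGFBP7, a secreted IGF-binding protein, had 7.70 FPKM at day 50 and 34.4 FPKM at day 40 (-2.02). CCN2, the TGF-beta target connective tissue growth factor, had 79.0 FPKM at day 50 and 205 FPKM at day 40 (-1.36), and outside the list THBS1, a thrombospondin that activates latent TGF-beta, had 111 FPKM at day 50 and 392 FPKM at day 40 (-1.81). LTBP1, which stores latent TGF-beta in the matrix, had 26.8 FPKM at day 50 and 69.8 FPKM at day 40 (-1.35). The member past 2-fold upward was MSTN, myostatin, a TGF-beta family brake on muscle growth made by fibres, at 20.1 FPKM at day 50 and 7.44 FPKM at day 40 (1.32). IGF2, the fetal growth factor that differentiating myoblasts secrete, had 1169 FPKM at day 50 and 801 FPKM at day 40 (0.54).

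Proliferation genes were level. The 22 genes kept of 24 lay between -0.25 (UBE2C) and 0.23 (MKI67), with a median of 0.02 that became -0.03 with equal totals, -0.05 after quantile normalization and with totals that leave out the 50 most abundant genes, and -0.07 with the median log ratio at 0. MKI67, the antigen of cycling cells, had 14.2 FPKM at day 50 and 11.98 FPKM at day 40. Genes of cell cycle exit were higher in 8 of 9 cases with a median of 0.38. Across all genes 64.7% were higher, with a median of 0.10. Oxidative phosphorylation genes (94.7%, median 0.24) and housekeeping genes (83.3%, median 0.16) were higher in like shares, so the count is not particular to cell cycle exit. Among the exit genes were the CDK inhibitors CDKN1C, with 112 FPKM at day 50 and 75.5 FPKM at day 40 (0.57), and CDKN1A, with 96.4 FPKM at day 50 and 68.6 FPKM at day 40 (0.49). The positional identity of the cultures was also level: 15 HOX and limb genes kept had a median of -0.01, and none passed 2-fold.

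Other cell types were looked for through lists of their markers. None of 10 endothelial genes reached 5 FPKM; the list summed to 4.78 FPKM at day 50 and 6.01 FPKM at day 40, with PECAM1 at 0.0164 FPKM at day 50 and 0 at day 40. None of 7 blood genes did (1.48 FPKM summed at day 50, 1.26 FPKM at day 40), with HBB and TYROBP at 0 on both days. Of 13 cardiac genes only RYR2, a calcium release channel also found outside the heart, reached 5 FPKM, with 6.24 FPKM at day 50 and 2.23 FPKM at day 40, and GATA4, TBX20, MYL7 and NPPB were at 0 on both days. Neural crest and Schwann cell genes summed to 149.9 FPKM at day 50 and 92.3 FPKM at day 40, with 3 of 10 kept, among them NGFR, which muscle progenitors of human pluripotent cultures also carry, at 29.2 FPKM at day 50 and 13.3 FPKM at day 40 (1.08), and ERBB3 at 60.8 and 30.4 FPKM in that order (0.98). SOX10, the defining factor of that lineage, was at 1.04 FPKM at day 50 and 0.400 FPKM at day 40. The part of these cells in the differences of the other genes was not tested.

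**Figure D5:**
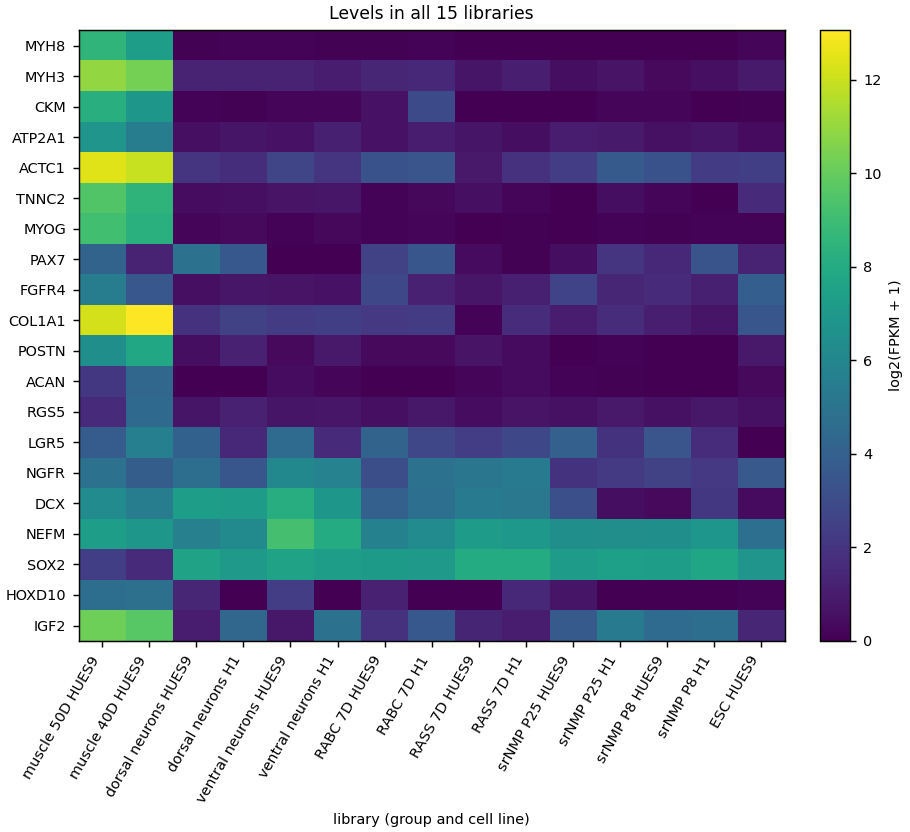
Colour gives log2(FPKM + 1) of 20 genes in all 15 libraries, with muscle at day 50 and day 40 at the left. MYH8, MYOG and COL1A1 are bright in the 2 muscle columns and at no more than 10.1 FPKM in the others, whereas PAX7, NGFR, DCX and NEFM are also seen in neural columns. NEFM also stands at 86.0 FPKM or more in every srNMP column and at 26.1 FPKM in stem cells.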

How the data were processed

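Poly(A) RNA of 2 HUES9 muscle cultures, at day 50 and day 40, was compared; RNA integrity was over 7, libraries were TruSeq Stranded mRNA and were read on a NovaSeq instrument, per the labels. The values are the authors' deposited FPKM per gene symbol. The tools named by the submitters' processing notes are Cufflinks, HTSeq, HISAT2 and Trimmomatic, and the build is hg18; which step each did, the versions and the settings are not given in the sources used here. The files give no coordinates, so promoters and their positions come from RefSeq on GRCh38.p14. 1 column of values matched no sample and was not used.

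Values were taken as deposited, 1 FPKM was added before log2, which understates differences of weakly expressed genes, and genes under 5 FPKM in both libraries were left out. The calculation (Python 3.11.15, numpy 2.4.6, pandas 2.3.3) was tested on simulated data. There was no test, since each day has 1 library. The muscle days, the gene lists (38) and the isoform pairs were chosen with earlier results of these data known. Named were the 5 markers, the first member and up to 4 members with the largest difference of each list, the 15 largest differences each way, and family or pair members; MYOG, MSTN, IGF2, HEY1, CALCR, SDC4, VCAM1, CKMT2, PDGFRA, SOX9, MYF5, SIX4, XIRP1, ANKRD1, RBFOX3, SYN1, NEFL, SNAP25, STMN2, COL19A1, CHAT, PAX6, SOX1, HBB, TYROBP, GATA4, TBX20, MYL7 and NPPB were added after their values were seen. Some genes that the rule names are not reported here. Alternatives were another pseudocount, other filters and 4 other scalings.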

Additional observations from a re-analysis of the deposited data

How the results depend on the processing

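With at least 20 FPKM required, which left 2641 genes, 27 were higher and 40 lower past 2-fold. The median difference of fibre genes, 0.53, became 0.46 with no filter, 0.48 with equal totals, 0.47 after quantile normalization, 0.43 with the median log ratio at 0 and 0.46 with totals without the 50 most abundant genes. The median difference of matrix genes, -0.32, became -0.43 with the median log ratio at 0 and -0.40 with totals without the 50 most abundant genes. Without a filter 102 genes were higher and 118 lower, and with a pseudocount of 0.1 FPKM 98 and 106. Of 58 named genes past 2-fold, all kept their sign wherever they were kept (29 at 20 FPKM). TNNC2 and SIX2 fell under 2-fold with equal totals, TMOD1, CACNG1 and NGFR also did after quantile normalization, MYOZ2 and PGAM2 as well with the median log ratio at 0, and TNNC2, SIX2 and CACNG1 with totals without the 50 most abundant genes; the cause was not tested. Of 255 list medians across settings, 5 differed in sign from the deposited scale: proliferation under the 4 other scalings and the HOX and limb list without a filter. No paired analysis was possible because each day has 1 library. Depth is estimated, so no counting interval was computed.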

Other observations

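Retinoid metabolism genes outside the lists were among the largest differences. The table holds 3 ALDH1A genes, which encode the enzymes that make retinoic acid, and all 3 were at least 2-fold higher at day 50. ALDH1A1 had 23.2 FPKM at day 50 and 5.49 FPKM at day 40 (log2 difference 1.90), ALDH1A3 20.04 and 6.36 FPKM in the same order (1.51), and ALDH1A2 7.40 and 1.82 FPKM (1.58). RDH10, which makes their retinaldehyde substrate, went the other way, with 4.64 FPKM at day 50 and 13.3 FPKM at day 40 (-1.35). Of 3 imprinted genes looked at, PEG3 had 56.4 FPKM at day 50 and 22.1 FPKM at day 40 (1.31), RTL1 6.63 and 2.25 FPKM in that order (1.23), and DLK1 71.7 and 49.9 FPKM (0.51). The Notch ligand DLL1 had 9.51 FPKM at day 50 and 3.58 FPKM at day 40 (1.199). RDH10, PEG3, RTL1 and DLL1 were chosen after their values were seen.

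The remaining large differences were spread over several functions. Upward, SPARCL1, a matricellular protein, had 130 FPKM at day 50 and 41.4 FPKM at day 40 (1.63), the adhesion gene NECTIN1 17.8 and 4.56 FPKM in the same order (1.76), and PRL, the hormone prolactin, 6.55 and 1.202 FPKM (1.78). TMEM132C (2.02), ARHGAP36 (1.64) and NKAIN4 (1.53) were others of the 15 largest. Downward, COL8A1, a short-chain collagen of vessel walls, had 5.21 FPKM at day 50 and 28.7 FPKM at day 40 (-2.26), LGR5, an R-spondin receptor, 12.8 and 48.8 FPKM in the same order (-1.85), and the metallothionein MT2A 1.79 and 8.05 FPKM (-1.70). TINAGL1 (-2.19), CLEC3B (-1.97) and F13A1 (-1.90), which encode secreted or plasma proteins, were also among the 15 largest.

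Transcripts of the stress response split. The immediate early gene FOS had 11.1 FPKM at day 50 and 3.74 FPKM at day 40 (1.35), and JUNB 13.8 and 6.76 FPKM in that order (0.93). DDIT3, a factor of the endoplasmic reticulum stress response, had 11.96 FPKM at day 50 and 24.1 FPKM at day 40 (-0.95), and the hypoxia-responsive peptide gene ADM 9.93 and 23.4 FPKM (-1.16). Over the list 12 of 17 genes were lower, with a median of -0.33. Nuclear genes of oxidative phosphorylation were higher in 36 of 38 cases with a median of 0.24 and none past 2-fold. Of the ribosomal protein genes, 73 of 74 were higher with a median of 0.23. Across all genes 64.7% were higher, with a median of 0.10, and 12 housekeeping genes had a median of 0.16. B2M, the light chain of class I antigen-presenting molecules, had 182 FPKM at day 50 and 254 FPKM at day 40 (-0.48).

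Some differences fell on near-identical gene copies, between which reads can be split. U2AF1 was listed at 0.592 FPKM at day 50 and 5.68 FPKM at day 40, and its copy U2AF1L5 at 7.25 and 1.14 FPKM in the same order; their sum was 7.84 FPKM at day 50 and 6.81 FPKM at day 40. CBS with CBSL summed to 5.26 FPKM at day 50 and 12.6 FPKM at day 40, and EIF3C with EIF3CL to 5.45 and 15.5 FPKM in that order. These single-copy values are uncertain.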
